A study of Mus musculus with 12 samples.

Results

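Glutathione S-transferases (GSTs) were followed in mouse liver as a family of 10 listed genes: Gsta2, Gsta3 and Gsta4 of the alpha class, Gstm1, Gstm2, Gstm3, Gstm4 and Gstm6 of the mu class, Gstp1 of the pi class and Gstt3 of the theta class. The genes were matched by the platform's gene symbol through probe sets with 1 symbol, and the probe set of highest mean stood for a gene. This found 9 of the 10, out of 19935 genes with such a probe set. All 4 probe sets that carry the symbol Gsta2 carry other symbols as well, so Gsta2 has no value of its own. Transcripts of whole liver were measured on 12 Affymetrix Mouse Gene 1.0 ST arrays, which read whole transcripts with oligonucleotide probes. The mice were 3-month-old ovariectomized females labelled C57BL/6, and each of 3 genotypes was given PPT or oil, with 2 arrays per group. MOER mice have, per the labels, oestrogen receptor alpha at the membrane only, ERKO mice lack oestrogen receptor alpha, and wild type mice have the intact receptor. PPT, which activates oestrogen receptor alpha selectively, was given at 100 µg a day for 3 days after 1 week of recovery from surgery, and the oil groups received 0.1 mL of oil. RNA of 3 animals was pooled for each array. The labels name neither the promoter nor the allele behind the MOER and ERKO lines. They say the experiment was repeated but not whether replicate arrays hold different animals, so p-values measure the spread between these arrays, which may be technical.

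GSTs join the tripeptide glutathione to reactive, electrophilic molecules, which makes drugs, carcinogens and products of lipid peroxidation more soluble and ready for export. Hepatocytes are rich in alpha and mu class enzymes, while the pi class is known in rodents for its induction in preneoplastic liver and, in mice, for higher levels in male liver. Many GST genes are controlled through antioxidant response elements by the transcription factor Nrf2, or by xenobiotic receptors.

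Array medians were 77.5 to 85.26 in linear intensity, and all 9 measured members were far above the dim range: the lowest value of any of them was 219.2, against 40th percentiles of 53.576 to 60.98. Esr1, the gene of oestrogen receptor alpha, read 117.2 to 131.3 in the 4 MOER arrays and 117.8 to 161.5 in the 4 ERKO arrays, against 308.6 to 364.9 in the 4 wild type arrays, so it sets the mutants apart from wild type but not MOER from ERKO. Replicate arrays correlated at 0.994 to 0.996 across probe sets, except those of ERKO oil, at 0.981. The 8 hepatocyte markers were bright everywhere, with a summed intensity of 76018 to 100332 across all arrays. Transcripts of other tissues stood out in 3 groups. The 12 measured pancreatic acinar markers summed to 40585 and 50797 in the MOER oil arrays and to 491 to 757 in the other 10. The 9 skeletal muscle markers summed to 10349 and 10601 in the ERKO PPT arrays and to 473 to 657 elsewhere. The 11 squamous and airway epithelial markers summed to 4782 and 5017 in ERKO PPT and 3622 and 3757 in wild type PPT, against 359 to 534 elsewhere. No marker of these lists was at 0 in both arrays of a group.

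The first comparison was PPT against oil with the full receptor present. Wild type livers given PPT had less of both measured alpha class members and all 5 mu class members and more Gstp1, and Gstt3 did not pass the test. Of the 9 measured members 7 fell and 1 rose by limma with Benjamini-Hochberg adjustment over 19119 probe sets. Over all probe sets 31.0% were called: 16.2% fell and 14.8% rose. At the threshold given in the labels, taken as an unadjusted p under 0.0001 with at least 2-fold change, 0 members passed in MOER, 1 in ERKO and 6 in wild type, against 0.832%, 1.35% and 5.68% of all probe sets. The median log2 change of the members was -1.31, against 0.005 over the 13987 genes tested.

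Gsta4, an alpha class enzyme that conjugates the lipid peroxidation product 4-hydroxynonenal, read 745.1 and 750.9 on the wild type PPT arrays, against 2336.7 and 2449.7 on the wild type oil arrays. The PPT mean was 31.3% of the oil mean, and the groups did not overlap. The log2 change was -1.66 ± 0.087 (standard error of the fit, adjusted p = 2.16e-07). Gsta3, which in the mouse detoxifies the epoxide of aflatoxin B1, read 4596.5 and 4115.9 under PPT, against 10707.3 and 10835.5 under oil. It fell to 40.4% of the oil mean, a log2 change of -1.31 ± 0.11 (adjusted p = 8.7e-06).

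Among the mu class genes, Gstm1 gave 1425.8 and 1343.3 in wild type PPT livers, against 3873.0 and 4229.4 in wild type oil livers, -1.54 ± 0.093 on the log2 scale (adjusted p = 6.2e-07). Gstm6 gave 297.1 and 239.0 under PPT, against 846.0 and 883.9 under oil, -1.64 ± 0.12 (adjusted p = 3.13e-06). Gstm3 gave 1013.7 and 1049.1 under PPT, against 3260.6 and 3154.0 under oil, -1.62 ± 0.089 (adjusted p = 3e-07). In these 3 genes the PPT mean was 31.0% to 34.2% of the oil mean, and no PPT array reached an oil array. Gstm3 has a second, dimmer probe set, which moved further: 152.4 and 143.8 under PPT, against 913.1 and 979.7 under oil, a log2 change of -2.55 ± 0.087. Members of the mu class are close in sequence, so part of a probe set's signal can come from a neighbouring gene, and the split between these genes is uncertain.

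The other mu class members fell less. Gstm4 gave 454.0 and 461.8 under PPT, against 988.6 and 1000.7 under oil, -1.09 ± 0.11 (adjusted p = 2.71e-05). Gstm2 gave 225.0 and 219.2 under PPT, against 358.6 and 336.7 under oil, -0.61 ± 0.17 (adjusted p = 0.0189). The groups did not overlap for either gene. The Gstm2 call was lost when any single wild type array was left out, with changes of -0.65 to -0.57, and no other member call in wild type was lost that way.

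Gstp1, the pi class enzyme, went the other way. It read 3537.3 and 3661.6 in wild type PPT livers, against 2391.7 and 2311.4 in wild type oil livers, a log2 change of 0.61 ± 0.11 (adjusted p = 0.00123). Gstt3, a theta class enzyme, read 916.5 and 964.9 under PPT, against 972.9 and 923.3 under oil. Its values overlapped, and the change was -0.01 ± 0.12 with a 95% interval of -0.27 to 0.25 (adjusted p = 0.956). Beside these changes, 8 endothelial markers summed to 3767 and 3832 in wild type PPT livers, against 6305 and 6549 in wild type oil livers, and the 8 hepatocyte markers to 81490 and 87676, against 92795 and 93506. The 8 macrophage markers summed to 8868 and 8918 in wild type PPT, against 7205 and 7343 in wild type oil, and the 8 stellate and fibroblast markers to 5521 and 5551, against 6457 and 6503. The part of these and of the squamous markers in the family's changes was not tested. In whole liver, fewer cells of a type and less RNA per cell cannot be told apart.

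**Figure D1:**
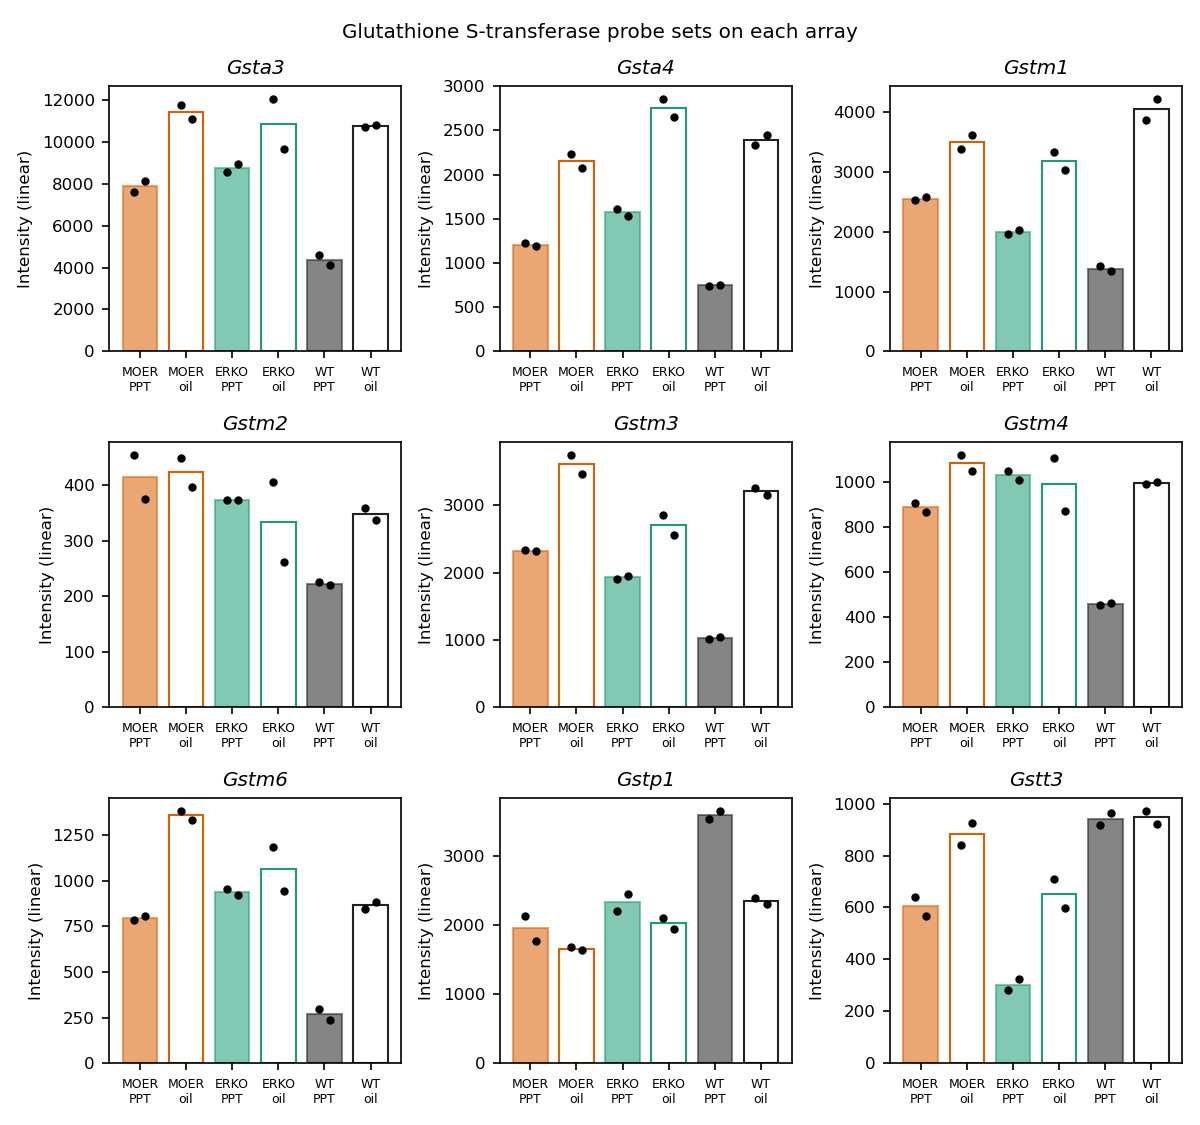
Linear hybridisation intensity (vertical axis, from 0) of the 9 measured members in the 6 groups (horizontal axis). Points are the 2 arrays of a group and bars their mean, filled for PPT and open for oil. The wild type PPT bar is the lowest of each panel for both alpha class and all 5 mu class genes, the highest for Gstp1, and level with wild type oil for Gstt3, where ERKO PPT is lowest at 281.6 and 324.9.

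The 250 bases before the annotated start were read from RefSeq's promoter table (GRCm38.p6), which held an entry for 8 of the 9 measured members, and are shown for a gene of each direction together with the mu class member Gstm3. Capitals mark a match to the antioxidant response element core (TGACNNNGC) or to an AP-1 site (TGANTCA), searched on both strands. The full palindromic oestrogen response element was searched as well. The windows, 5′ to 3′ on the gene's strand, are chr1:21240335-21240584 (plus) for Gsta3, chr3:107969175-107969424 (minus) for Gstm3 and chr19:4037913-4038162 (minus) for Gstp1.
Gsta3: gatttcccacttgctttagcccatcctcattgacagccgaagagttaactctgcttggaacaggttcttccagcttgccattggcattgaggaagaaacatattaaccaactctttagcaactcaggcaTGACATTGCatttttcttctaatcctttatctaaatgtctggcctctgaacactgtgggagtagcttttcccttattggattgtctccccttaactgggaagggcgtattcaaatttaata
Gstm3: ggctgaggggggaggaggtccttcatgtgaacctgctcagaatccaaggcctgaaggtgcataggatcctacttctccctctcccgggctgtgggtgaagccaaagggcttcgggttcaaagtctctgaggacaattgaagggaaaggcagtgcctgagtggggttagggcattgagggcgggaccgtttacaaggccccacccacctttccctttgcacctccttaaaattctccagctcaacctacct
Gstp1: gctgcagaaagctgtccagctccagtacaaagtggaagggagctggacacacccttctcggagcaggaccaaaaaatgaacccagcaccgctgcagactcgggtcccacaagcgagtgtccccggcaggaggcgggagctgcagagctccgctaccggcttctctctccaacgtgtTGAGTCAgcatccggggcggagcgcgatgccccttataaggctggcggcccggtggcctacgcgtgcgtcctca
Gsta3, which fell, holds 1 antioxidant core, TGACATTGC, that begins 121 bases before the start. Gstp1, which rose, holds 1 AP-1 match, TGAGTCA, that begins 74 bases before it. With the gc that follows, this stretch differs from the searched antioxidant core only in the base after TGA. Looser forms of that core were not searched. None of the 3 motifs lies in the windows of Gstm1, Gstm2, Gstm3, Gstm4, Gstm6 or Gstt3. The antioxidant core is in 10.2% of the 32851 windows of this length, the AP-1 site in 6.75% and the full oestrogen element in 0.0639%. A match is a stretch of letters and not a shown site, and the search did not extend further upstream.

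The second comparison was PPT against oil in MOER liver, with membrane receptor only. Of the 9 members, 6 fell and none rose, against 2.31% of all probe sets that fell and 2.35% that rose (4.66% in all). The members' median was -0.54, against 0.002 over all genes tested. Gsta4 read 1227.3 and 1190.4 in MOER PPT livers, against 2235.9 and 2076.4 in MOER oil livers, -0.83 ± 0.087 (adjusted p = 0.000228). Gstm6 read 785.7 and 808.8 under PPT, against 1384.8 and 1332.8 under oil, -0.76 ± 0.12 (adjusted p = 0.00497). Gstm3 read 2332.0 and 2317.1 under PPT, against 3753.1 and 3472.1 under oil, -0.63 ± 0.089 (adjusted p = 0.00175). The PPT arrays lay below the oil arrays in all 3 genes, at 56.1% to 64.3% of the oil mean.

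Gsta3 changed by -0.54 ± 0.11 in MOER (7636.9 and 8131.4 under PPT, against 11777.5 and 11100.8 under oil), Gstm1 by -0.45 ± 0.093 (2528.9 and 2581.0, against 3383.4 and 3616.2). Gstt3, level in wild type, fell in MOER to 641.0 and 567.0 under PPT, against 842.3 and 925.8 under oil, -0.54 ± 0.12 (adjusted p = 0.0244). The other 3 members did not pass. Gstm4 gave -0.28 ± 0.11 (adjusted p = 0.248), Gstm2 -0.03 ± 0.17 (adjusted p = 0.972) and Gstp1 0.23 ± 0.11 (adjusted p = 0.353). Without MOER oil replicate 1 or MOER PPT replicate 1 the count of falls was 2, Gsta4 and Gstm3. Without replicate 2 of either group it was 3, with Gstm6 added. Gstm4 kept its -0.28 without either ERKO oil array. Those arrays enter this comparison only through the spread that the fit shares over all groups, and the call changed with it. The acinar transcripts of the MOER oil arrays move with this comparison. So do 8 stellate and fibroblast markers, with sums of 7221 and 7563 in MOER PPT, against 6360 and 6385 in MOER oil, and 8 macrophage markers, with 9302 and 9513, against 8639 and 8660. Their part in it was not tested.

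The third comparison asked what PPT does without the receptor. In ERKO liver 4 of the 9 members fell and none rose, against 8.46% and 9.48% of all probe sets (17.9% in all), and the members' median was -0.30. Gstt3 had the largest change of the 9: it read 281.6 and 324.9 in ERKO PPT livers, against 709.8 and 597.2 in ERKO oil livers, -1.07 ± 0.12 (adjusted p = 0.000188). Gsta4 read 1608.6 and 1536.4 under PPT, against 2860.7 and 2658.3 under oil, -0.80 ± 0.087 (adjusted p = 0.000184). Gstm1 read 1957.1 and 2035.0 under PPT, against 3344.4 and 3031.7 under oil, -0.67 ± 0.093 (adjusted p = 0.00101). The groups did not overlap for any of these genes. Gstm3 changed by -0.48 ± 0.089 (adjusted p = 0.00489), with 1902.2 and 1956.2 under PPT, against 2853.4 and 2563.4 under oil.

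The members that did not pass in ERKO were Gsta3 at -0.30 ± 0.11 (adjusted p = 0.0955), Gstp1 at 0.20 ± 0.11, Gstm6 at -0.17 ± 0.12, Gstm2 at 0.19 ± 0.17 and Gstm4 at 0.07 ± 0.11. Several of their ERKO oil values lay far apart: Gstm2 read 406.0 in replicate 1 and 260.6 in replicate 2, and Gsta3 12077.5 and 9661.8. Without ERKO oil replicate 2 Gsta3 passed at -0.46, as it did with quantile normalization (-0.45) and a trended eBayes (-0.30), Gstm2 gave -0.12 and Gstm4 -0.10. Without ERKO oil replicate 1 Gstm2 passed at 0.49, so the direction of Gstm2 in ERKO rests on which oil array is kept. The skeletal muscle and squamous markers of the ERKO PPT arrays move with this comparison, and the hepatocyte markers summed to 92026 and 93609 there, against 76018 and 100332 in ERKO oil. The endothelial markers summed to 6390 and 6758 in ERKO PPT, against 5160 and 5968 in ERKO oil. The macrophage markers summed to 6682 and 6805 in ERKO PPT, against 7539 and 8435 in ERKO oil. Their part in the changes was not tested.

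The difference between responses was then tested directly. The wild type response was lower than the ERKO response in 7 members and higher in 1, so 8 of 9 differed, against 22.3% of all probe sets. By the probe set that stood for each gene, Gstm6 had the largest difference among the members, -1.47 ± 0.18 (adjusted p = 0.000182). Gstm4 followed at -1.16 ± 0.16 and Gstm3 at -1.14 ± 0.13. The second, dimmer Gstm3 probe set differed more, by -2.27 ± 0.12 (adjusted p = 5.29e-07). Gsta3, Gstm1, Gsta4 and Gstm2 differed by -1.0, -0.87, -0.85 and -0.80, and Gstm2 lost its call without any 1 of the wild type or ERKO PPT arrays. Gstt3 was the member with a positive difference, 1.06 ± 0.16 (adjusted p = 0.00101): it fell in ERKO and not in wild type. Gstp1 did not pass, at 0.41 ± 0.15 (adjusted p = 0.0779), and passed at 0.47 without ERKO oil replicate 2. It also passed with an added constant of 64 (0.40), quantile normalization (0.46) and a trended eBayes (0.41).

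The wild type response was also lower than the MOER response in 6 members and higher in 1, so 7 of 9 differed, against 21.6% of all probe sets. Gstm1 differed by -1.09 ± 0.13 (adjusted p = 0.000166), Gstm3 by -0.99 ± 0.13, Gstm6 by -0.88 ± 0.18, Gsta4 by -0.83 ± 0.12, Gstm4 by -0.81 ± 0.16 and Gsta3 by -0.77 ± 0.16. The second Gstm3 probe set differed more, by -1.75 ± 0.12 (adjusted p = 4.05e-06). Gstt3 gave 0.53 ± 0.16 (adjusted p = 0.042), a call lost without any single wild type array, either MOER oil array or MOER PPT replicate 2, and also with an added constant of 1, with no filter on dim probe sets and with median centring (adjusted p = 0.0522, 0.079 and 0.0606). Gstm2 (-0.58, adjusted p = 0.125) and Gstp1 (0.38, adjusted p = 0.105) did not pass. Gstm2 passed without either ERKO oil array, and Gstp1 passed at 0.51 without MOER PPT replicate 1. Both comparisons share the wild type arrays.

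Between MOER and ERKO responses limma called 0 of the 9 members, against 11.5% of all probe sets. An unadjusted p under 0.05 was found in 3 members, a threshold at which no share over all probe sets was taken. Gsta4, which fell in both, differed by -0.02 ± 0.12 with a 95% interval of -0.29 to 0.25, and Gstm3 by -0.15 ± 0.13, from -0.43 to 0.13. These intervals leave room for moderate differences either way. Gstm6 at -0.59 ± 0.18 (adjusted p = 0.0565) and Gstt3 at 0.53 ± 0.16 (adjusted p = 0.0637) came nearest to the threshold. Leaving out ERKO oil replicate 1 gave 4 calls (Gsta3, Gstm2, Gstm4 and Gstm6), and leaving out ERKO oil replicate 2 gave 1 (Gstt3). The 11.5% belongs to the fit of all 12 arrays, and the count over all probe sets moved too when an array was left out. The second Gstm3 probe set did pass, at -0.52 ± 0.12 (adjusted p = 0.0226), with falls of -0.80 in MOER and -0.28 in ERKO.

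**Figure D2:**
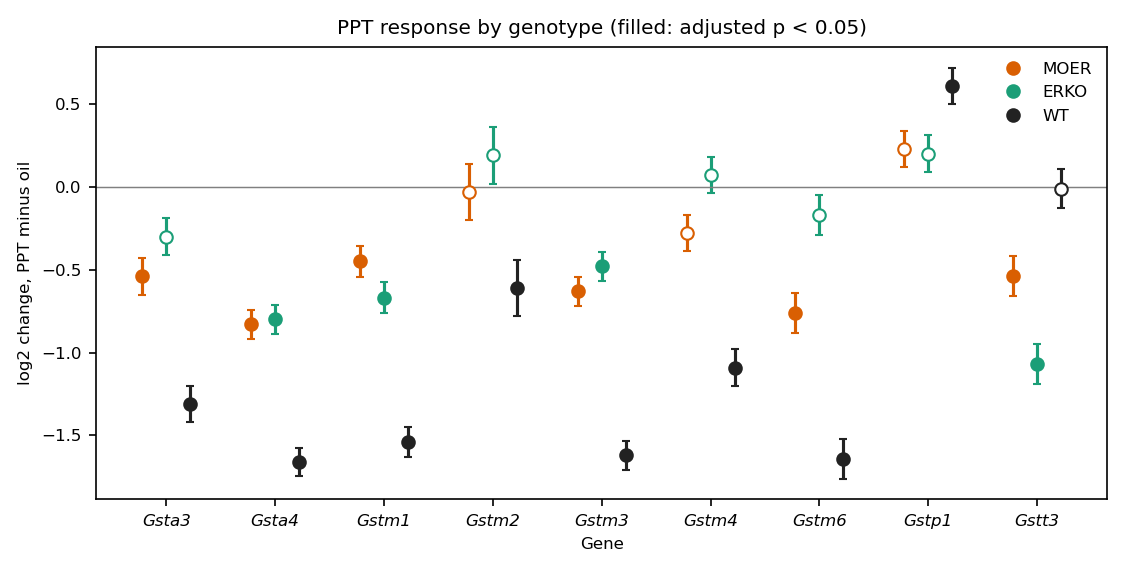
log2 change (PPT minus oil, vertical axis) of the 9 measured members (horizontal axis) in MOER, ERKO and wild type (WT) liver, with the standard error of the fit from 2 arrays per group. Filled points passed at an adjusted p under 0.05. The wild type points lie lowest for both alpha and all 5 mu class genes, while for Gstt3 the ERKO point is lowest at -1.07.

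The mu and theta genes each lie side by side on a chromosome, which lets the responses be read along the cluster. In RefSeq's order on chromosome 3 the mu genes run Gstm5, Gstm7, Gstm6, Gstm3, Gstm2, Gstm1 and Gstm4, with 0 other protein-coding genes between them. The wild type changes in that order were -0.38, -1.24, -1.64, -1.62, -0.61, -1.54 and -1.09, all called and all downward, with the 2 smallest at Gstm5 and Gstm2. Over all probe sets 31.0% were called. Gstm3 is given here by its brighter probe set. Its second probe set changed by -2.55 in wild type, further than any of these values, and by -0.80 in MOER and -0.28 in ERKO. The Gstm5 call (adjusted p = 0.0418) was lost without any 1 of 8 arrays, those of wild type, ERKO PPT and MOER PPT. In MOER the called falls were Gstm6, Gstm3 and Gstm1, and in ERKO Gstm3 and Gstm1. Gstm7, which is not among the 10 listed genes, gave 460.0 and 462.4 in wild type PPT, against 1094.3 and 1123.1 in wild type oil, and did not pass in MOER (0.04 ± 0.088) or ERKO (-0.06 ± 0.088). Its wild type response differed from that of ERKO by -1.18 ± 0.13 and from that of MOER by -1.28 ± 0.13.

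The theta genes on chromosome 10 run Gstt3, Gstt1, Gstt4 and Gstt2, with 0 other protein-coding genes between them. Along that order the ERKO changes were -1.07, -0.78, -0.53 and -0.31, and the wild type changes -0.01, -0.23, -0.42 and -0.77. Gstt3, Gstt1 and Gstt4 passed in ERKO, and Gstt4 and Gstt2 in wild type. The difference between the wild type and ERKO responses passed for Gstt3 and for Gstt1 (0.55 ± 0.15, adjusted p = 0.0206, lost without any single wild type or ERKO PPT array), and not for Gstt4 (0.11) or Gstt2 (-0.46, adjusted p = 0.0871). Gstt4 was dim, with 28.0 to 58.1 over all arrays, and its calls were lost without several single arrays. Gstt4 passed the filter on dim probe sets only through wild type oil replicate 2 (56.0, against a 40th percentile of 54.196) and ERKO oil replicate 1 (55.9, against 54.056). These are groups where it was high, so its falls in wild type and ERKO lend no support. Its wild type call was also lost with no filter, an added constant of 64 and a trended eBayes. The order along 4 genes is a description of these arrays.

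**Figure D3:**
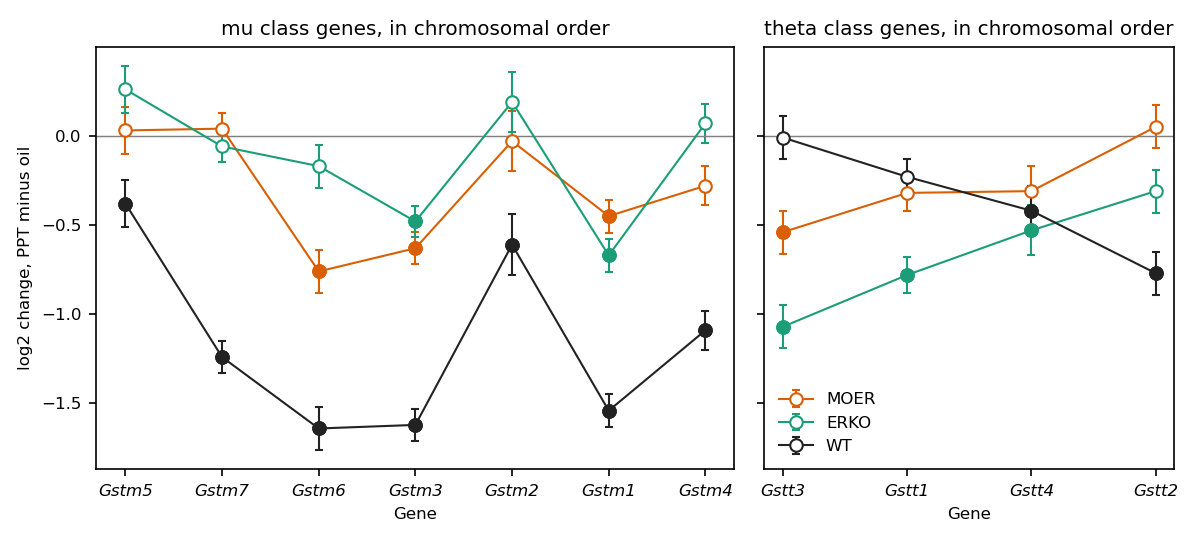
log2 change (PPT minus oil, vertical axis) of the 7 mu class genes on chromosome 3 and the 4 theta class genes on chromosome 10 in RefSeq's gene order (horizontal axis), in MOER, ERKO and wild type (WT) liver. Bars are standard errors of the fit from 2 arrays per group, and filled points passed at an adjusted p under 0.05. Gstm3 is drawn by its brighter probe set. Gstt4 passed the filter on dim probe sets only through arrays of wild type oil and ERKO oil, where it was high. In the theta panel the ERKO points climb from -1.07 at Gstt3 to -0.31 at Gstt2 and the wild type points descend from -0.01 to -0.77.

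The 4 probe sets that carry the symbol Gsta2 also carry Gsta1 and the predicted genes Gm10639 and Gm3776, and their signal is assigned to no one of them. Their response to PPT passed in all 3 genotypes. Probe set 10587323 read 921.8 and 1118.5 in MOER PPT livers, against 3054.2 and 2799.3 in MOER oil livers. In ERKO it read 823.3 and 861.4 under PPT, against 2737.2 and 2426.6 under oil, and in wild type 821.8 and 777.2 under PPT, against 2449.6 and 2432.6 under oil. The PPT arrays of all genotypes lay far below all oil arrays. The log2 changes of this probe set were -1.51 ± 0.11 in MOER, -1.60 ± 0.11 in ERKO and -1.59 ± 0.11 in wild type, with adjusted p = 1.44e-05, 5.49e-06 and 1.56e-06. The difference between the wild type and ERKO responses was 0.00 ± 0.16 (95% interval -0.34 to 0.35, adjusted p = 0.992). The other 3 probe sets changed by -1.51 to -1.50 in MOER, -1.65 to -1.57 in ERKO and -1.60 to -1.56 in wild type. No response difference between genotypes passed for any of the 4. They share all their symbols, so they are not independent.

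Under oil limma called few members between genotypes. An unadjusted p under 0.05 was found in 5 members for ERKO minus wild type, 3 for MOER minus wild type and 5 for MOER minus ERKO. No share over all probe sets was taken at that threshold, so these counts cannot be set against a background. ERKO was lower than wild type in 1 of 9 members, Gstt3, with 709.8 and 597.2 in ERKO oil, against 972.9 and 923.3 in wild type oil (-0.53 ± 0.12, adjusted p = 0.0287), where 5.01% of all probe sets were called. That call was lost without either wild type oil array, either wild type PPT array or ERKO oil replicate 2. Without ERKO oil replicate 1 Gstm1 (-0.41), Gstm2 (-0.39) and Gstm3 (-0.32) passed as well. MOER was higher than wild type in Gstm6 (0.64 ± 0.12, adjusted p = 0.0162) and lower in Gstp1, with 1683.1 and 1639.6 in MOER oil, against 2391.7 and 2311.4 in wild type oil (-0.50 ± 0.11, adjusted p = 0.0231). The background was 5.66%, and both calls were lost without any 1 of the 4 arrays compared. MOER was higher than ERKO in Gstm3 alone (0.41 ± 0.089, adjusted p = 0.043), against a background of 2.05%, a call lost without any 1 array other than those of ERKO oil. Without ERKO oil replicate 1, 5 members passed, and without ERKO oil replicate 2 Gsta4 joined it at -0.41. The backgrounds given here belong to the fit of all 12 arrays, and the counts over all probe sets moved too when an array was left out. The second Gstm3 probe set was higher in MOER oil than in ERKO oil (0.65 ± 0.087, adjusted p = 0.00336). It was also higher in MOER oil than in wild type oil (0.43 ± 0.087, adjusted p = 0.0175). The acinar transcripts of the MOER oil arrays move with both MOER comparisons, and their part was not tested.

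The rest of the family was read from a further list of 17 GST and microsomal GST genes, of which 14 had a probe set of their own and were tested. In wild type 9 fell and none rose, in ERKO 3 fell and in MOER 1, where 31.0%, 17.9% and 4.66% of all probe sets were called in either direction. Without wild type PPT replicate 2 the first count was 5. The ERKO count was 5 without ERKO oil replicate 1 and 6 without replicate 2, and the MOER count was 0 to 2 over single arrays left out. Mgst3, a microsomal family member, was the deepest fall of this list in wild type, -1.67 ± 0.16, and the one that passed in MOER (-0.73 ± 0.16, adjusted p = 0.0282), a call lost without any 1 of 5 arrays. Gsto1, the omega class enzyme that reduces dehydroascorbate, fell in wild type (-0.87 ± 0.093) and ERKO (-0.73 ± 0.093) and not in MOER (0.07 ± 0.093). It was already lower under oil in both mutants, with 1000.4 and 987.6 in MOER and 1099.2 and 939.9 in ERKO, against 1827.0 and 1880.4 in wild type. The other falls in wild type were Gstm7, Gstk1 (-0.66), Gstt2, Gstz1 (-0.38), Gstm5, Gstt4 and Gsto2 (-0.35), of which Gsto2, like Gstt4, was dim. Gsto2 passed the filter on dim probe sets only through wild type oil replicate 2 (58.2, against a 40th percentile of 54.196) and MOER oil replicate 1 (63.4, against 60.98). Gstt4, counted in wild type and ERKO, passed it only through an oil array of each. Their falls thus add no support to these counts. Both wild type calls were lost with no filter, an added constant of 64 and a trended eBayes.

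Genes that make and recycle glutathione moved in both directions. Of 23 tested in wild type 6 rose and 6 fell, with a median of -0.07 and a background of 31.0%. Cth and Mat1a, which feed methionine sulphur toward cysteine, fell by 1.82 and 1.52 on the log2 scale. Ggct and Chac1, which break glutathione or its gamma-glutamyl products down, rose by 1.94 and 0.93. In ERKO 4 rose and 5 fell, 9 in all against a background of 17.9%, and 5 were called without ERKO PPT replicate 1 and 4 without replicate 2. Gpx8, a peroxidase of the endoplasmic reticulum, rose by 0.92 there, and Cbs and Gclc, the catalytic subunit of the first step of glutathione synthesis, fell by 0.55 and 0.46. In MOER 10 of the 23 had an unadjusted p under 0.05, a threshold at which no share over all probe sets was taken. By the adjusted p limma called 0 of them, against 4.66% of all probe sets. That count was 4 without either ERKO oil array and 1 without either ERKO PPT array.

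Of 22 tested Nrf2 targets outside the GST family, 5 rose and 8 fell in wild type, with a median of -0.02 and a background of 31.0%. These 13 calls were 8 without wild type oil replicate 1 or wild type PPT replicate 1. Pgd and Srxn1 rose by 1.41 and 1.06, while Gclm and Cbr1 fell by 0.56 and 0.51. In MOER 1 rose and 4 fell, Me1 (-0.70) and Ephx1 (-0.63) with the smallest p, against a background of 4.66%. This count of 5 was 2 or 3 without any 1 MOER array and 9 without either ERKO oil array. In ERKO 8 fell and none rose, against 17.9%, with 15 and 13 called without ERKO oil replicate 1 and 2 and 5 without ERKO PPT replicate 2. Ephx1, the microsomal epoxide hydrolase, changed by -1.03 ± 0.084 there and by 0.00 ± 0.084 in wild type. Among 16 tested regulators, 2 rose and 8 fell in wild type, and 6 fell in ERKO, against backgrounds of 31.0% and 17.9%. The ERKO count was 3 without ERKO PPT replicate 1 and 1 without replicate 2. Nr1i3, the xenobiotic receptor CAR, changed by -0.98 in wild type, -0.99 in ERKO and 0.08 ± 0.091 in MOER. Ppara and Rxra fell in wild type by 0.89 and 0.97, as did Nfe2l1 by 0.71. Nfe2l2, the gene of Nrf2, rose by 0.61 in wild type and fell by 0.41 in ERKO. Among the 16 regulators 1 had an unadjusted p under 0.05 in MOER, again without a share over all probe sets. By the adjusted p limma called 0 of them in MOER, against 4.66% of all probe sets. That count was 2 without either ERKO oil array.

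Of 8 tested exporters 2 rose and 2 fell in wild type, against a background of 31.0%. Abcc2, which carries glutathione conjugates into bile, fell by 1.27 in wild type and 0.58 in ERKO and gave -0.10 ± 0.081 in MOER. In MOER 1 exporter fell, Abcg2 at -0.39, against a background of 4.66%, and the count was 2 without either ERKO oil array and 0 without any 1 of the other 10. In ERKO 2 rose and 3 fell, against 17.9%. Of 11 pericentral hepatocyte genes 8 fell and 1 rose in wild type, with a median of -1.01 and a background of 31.0%. Cyp1a2 (-2.07), Slc1a2 (-1.20), Glul (-1.71) and Gulo (-1.32) had the smallest p. The gene that rose was Lect2 (0.32). In ERKO 4 of the 11 fell and 1 rose, and in MOER 1 fell (Cyp1a2, -0.40) and 1 rose (Slc1a2, 0.52), against 17.9% and 4.66% of all probe sets. The ERKO count of 5 was 3 without ERKO PPT replicate 2. The MOER count of 2 was 0 without MOER oil replicate 1 and 1 without any 1 of the other arrays of wild type, ERKO PPT or MOER, and 3 without either ERKO oil array.

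For the 3 members with the widest range of group means, the genes outside the family with the most similar pattern were sought by Pearson's correlation of log2 values over the 12 arrays. For Gstm6, with a range of 2.28, they were Hsd3b3 (0.989), Ugt2b34 (0.987) and Cyp2c54 (0.987). For Gsta4, with a range of 1.86, they were Slc17a1 (0.989), Acsm5 (0.978) and Gm10768 (0.974). For Gstm3, with a range of 1.79, they were Cyp4f14 (0.987), Pltp (0.985) and S1pr1 (0.983). The arrays fall into 6 groups, so these values describe likeness over few independent points. The order of the groups differed between members: wild type PPT was the lowest group for all 7 alpha and mu members, ERKO PPT for Gstt3 and MOER oil for Gstp1, whose highest group was wild type PPT.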

How the data were processed

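The deposited table holds 1 linear hybridisation intensity per probe set and array, 28815 probe sets on 12 arrays. Per the labels' protocols the authors pooled the RNA of 3 animals per array. Probe summarisation and array scaling are not named in the labels, and since the medians nearly agree the values were not scaled again. The scale of all fits was log2(intensity + 16). Of the probe sets 19119 were tested, those that exceeded the array's 40th percentile on at least 2 arrays. A single gene symbol was annotated to 21780 probe sets, more than 1 symbol to 1605 and no symbol to 5430.

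One limma fit (3.58.1 in R 4.3.3) of 6 group means on all 12 arrays gave 9 two-sided contrasts (residual degrees of freedom 6, moderated 10.47). P-values were adjusted by Benjamini-Hochberg over all probe sets tested, and a call is an adjusted p under 0.05. Errors are standard errors of the fit. Background shares are of the fit to all 12 arrays, also where a count is given with an array left out. The spread is shared over all 6 groups, so leaving out an array can change calls of comparisons that do not use it. The fit was tested on simulated data. All listed genes are described. Other named genes are those with the smallest adjusted p in each list, up to 4 in wild type and 2 more in each of MOER and ERKO, or family genes called under PPT. The number of arrays limits the precision. How many of all probe sets had PPT and oil arrays that did not overlap was not counted, so a lack of overlap is description only. The members and lists were chosen with earlier results of these data known.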

Additional observations from a re-analysis of the deposited data

Results flagged for a closer look

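Responses to PPT that differed between genotypes by the test of the difference itself were marked for a closer look. For wild type minus ERKO these were Gstm6 (-1.47), Gstm4 (-1.16), Gstm3 (-1.14), Gsta3 (-1.0), Gstm1 (-0.87), Gsta4 (-0.85), Gstm2 (-0.80) and Gstt3 (1.06), as log2 differences. For wild type minus MOER they were Gstm1 (-1.09), Gstm3 (-0.99), Gstm6 (-0.88), Gsta4 (-0.83), Gstm4 (-0.81), Gsta3 (-0.77) and Gstt3 (0.53), whose call was lost under several alternatives. The 2 sets share the wild type arrays. The second Gstm3 probe set gave -2.27 for wild type minus ERKO and -1.75 for wild type minus MOER. With 2 arrays in a group no single array could be tested as an outlier.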

How the results depend on the processing

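Of the 37 member calls over the 9 contrasts, 0 changed sign under the 23 alternatives and 13 were kept under all of them. The count of members called under PPT in wild type stayed within 1.5 times of 8. At the authors' threshold in the labels, taken as an unadjusted p under 0.0001 with at least 2-fold change, the counts were 0 for the MOER response, 1 for ERKO, 5 for wild type minus ERKO, 1 for wild type minus MOER, and 0 for each of the 3 oil contrasts. For MOER minus ERKO responses the count became 2 with an added constant of 64, with the stricter filter, with quantile normalization and with a trended eBayes, and 1 with the replicate block. For ERKO minus wild type under oil it became 2 with the constant of 64 and the stricter filter, 3 with quantile normalization and the trend, and 0 with no filter or without the ERKO PPT and MOER oil arrays, an alternative chosen after seeing the data. For MOER minus ERKO under oil it became 3 with the constant of 64, quantile normalization and the trend, 2 with the stricter filter, and 0 with a constant of 1, no filter and the replicate block. The cause was not tested. Leaving out each array in turn gave 2 to 7 calls for the MOER response, 0 to 4 for MOER minus ERKO responses, 0 to 4 for ERKO minus wild type, 0 to 2 for MOER minus wild type and 0 to 5 for MOER minus ERKO under oil.

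Values near 0, none of them called, turned sign. With quantile normalization Gsta3 gave 0.01 and Gsta4 0.08 for MOER minus ERKO responses, Gsta3 -0.08 for MOER minus ERKO under oil and Gstm4 0.03 for ERKO minus wild type. With median centring Gsta4 gave 0.03 for MOER minus ERKO responses, and Gsta3 -0.01 for ERKO and -0.0021 for MOER minus wild type under oil. Leave-one-out ranges that crossed 0 were, for PPT responses, Gstt3 in wild type (-0.05 to 0.03), Gstm2 in MOER (-0.16 to 0.10) and ERKO (-0.12 to 0.49) and Gstm4 in ERKO (-0.10 to 0.24), and for MOER minus ERKO responses Gsta4 (-0.07 to 0.03), Gstm2 (-0.52 to 0.09) and Gstp1 (-0.10 to 0.16). Under oil they were, for ERKO minus wild type, Gsta3 (-0.16 to 0.16), Gstm2 (-0.39 to 0.22) and Gstm4 (-0.19 to 0.15), and for MOER minus ERKO Gsta3 (-0.08 to 0.24) and Gstm4 (-0.03 to 0.31). The replicate numbers of different groups were not shown to pair the arrays: deviations of same-numbered arrays correlated at -0.147 to 0.377 over 15 pairs of groups, 5 of them above 0.1. With the replicate block Gstt3 no longer passed for wild type minus MOER responses (0.53, adjusted p = 0.0526).

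Counts over all probe sets, the background of the member counts, moved too. Outside the authors' threshold, leaving out 1 array gave 4026 to 7737 in wild type against 5921, 437 to 1672 in MOER against 890, 1200 to 5346 in ERKO against 3430, 2873 to 6735 for wild type minus ERKO responses against 4266, 2959 to 5607 for wild type minus MOER against 4124, 1078 to 4802 for MOER minus ERKO against 2193, and, under oil, 230 to 6329 for ERKO minus wild type against 957, 249 to 3332 for MOER minus wild type against 1082 and 123 to 2151 for MOER minus ERKO against 392. For the gene lists in MOER, where limma called 0, the replicate block gave 1 glutathione gene, the stricter filter 2, and constant 64, quantile normalization and the trend 1, 2 and 4 glutathione genes and 1 regulator each.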
